A study of Mus musculus with 8 samples.

Results

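Dermal fibroblasts of embryonic mouse back skin were examined at embryonic day 15 (E15), in skin with and without the transcription factor p63 (gene Trp63). The skin had been digested with collagenase and trypsin and single cells had been captured with a 10x 3' kit, which counts RNA molecules as UMIs (unique molecular identifiers) per gene and cell barcode. The E15 libraries were 1 wild type (WT), 1 heterozygote for a deltaNp63-GFP knock-in allele (HET) and 2 libraries labelled as knockouts of the same allele (KO 1 and KO 2). The labels name no Cre or promoter for the allele, no strain or sex, and do not say whether a library is 1 embryo or a pool, so p-values measure only the spread between these libraries. The WT and HET libraries formed the control arm and were set against the 2 KO libraries, and the same cells at embryonic day 13 (E13), again 1 WT, 1 HET and 2 KO libraries, served as the other age.

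Fibroblasts were chosen by a rule on measured values. Barcodes were kept if they had 1000 or more genes and no more than 10% of their UMIs from mitochondrial genes, and were called rule cells when at least 3 of the fibroblast genes Pdgfra, Prrx1, Twist1, Twist2, Lum, Dcn and Mfap4 had a UMI, fewer than 3 of the epithelial genes Epcam, Cdh1, Cldn6, Cldn7, Esrp1, Grhl2 and Rab25 had one, and Cdh5, Ptprc, Sox10, Myog and Rgs5 (endothelial, blood, neural crest, muscle and mural genes) had none. The rule gave 2474 cells of 4348 E15 barcodes and of 8339 barcodes in all 8 libraries: 353 in WT, 558 in HET, 694 in KO 1 and 869 in KO 2. They were 69.9%, 72.1%, 70.6% and 65.3% of the kept barcodes in that order, 71.0% ± 1.55 in control and 68.0% ± 3.72 in KO (SD, n = 2 each; exact permutation test, two-sided, p = 0.667, where the smallest p that 2 against 2 libraries can give is 0.333). Cells with exactly 3 fibroblast genes, just inside the threshold, numbered 15, 14, 13 and 30, and those with 2, just outside it, 16, 20, 4 and 15. The rule cells held 4945460, 8270313, 9742383 and 11728002 UMIs, with a median of 13642, 13836, 12891.5 and 12925 per cell.

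The label of these cells was checked on collagen genes that the rule did not use. After each cell was thinned to 5000 UMIs, Col1a1, Col1a2 and Col3a1, which encode the chains of the main fibrillar collagens, each had a UMI in 98.2% to 99.7% of rule cells of every library. In 29 thinned WT barcodes with at least 3 epithelial genes their shares were 31.0%, 20.7% and 17.2%. Such a share does not by itself show that an RNA is the cell's own. The haemoglobin gene Hba-a1 had a UMI in 92.2% of WT, 100% of HET, 99.9% of KO 1 and 99.8% of KO 2 thinned rule cells. Among the rule's own genes, given as a description, Mfap4 stood at 227 CPM (UMIs summed over the rule cells of a library and scaled to the library's total) in WT, 209 in HET, 881 in KO 1 and 986 in KO 2, and Twist2 at 955, 1019, 700 and 596. Pdgfra was at 122, 103, 113 and 90.6 CPM and Prrx1 at 315, 322, 326 and 298. The targeted gene, Trp63, is an epithelial gene and had 48, 30, 3 and 0 UMIs in the rule cells.

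The dermis and the epidermis build hair follicles together. Wnt ligands made in the epidermis switch on Lef1, Axin2 and Dkk1 in the upper dermis, FGF from the epithelial placode gathers fibroblasts into a dermal condensate, and Sonic hedgehog from the placode acts on that condensate through Ptch1 and the Gli factors. Mesenchymal BMPs and secreted inhibitors set the spacing. p63 is needed for a stratified epidermis, and its products are made by epithelial cells, so the fibroblasts of p63-null skin lie beside an abnormal epithelium.

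UMIs were summed over the rule cells of each library and tested gene by gene. Of 12401 genes tested, 753 (6.07%) passed an adjusted p of 0.05, 446 (3.6%) higher and 307 (2.48%) lower in KO; without the rule's own genes these were 750, 444 and 306. All log2 fold changes below are KO minus control with the standard error that the test statistic implies. The median over all genes tested was -0.01. Control is 2 genotypes: HET lay nearer to the KO libraries than WT did for 182 of the 444 genes that rose and for 195 of the 306 that fell, a description with 1 library each. With 1 library left out the number of genes past the threshold ran from 533 (without KO 2) to 919 (without HET). A lower summed level can come from fewer cells of a kind or from less RNA in each cell, and the sums cannot tell these apart.

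Of 41 Wnt signalling genes tested, 8 fell and 5 rose, with a median of -0.29. The genes that fell included the nuclear factor Lef1, the feedback genes Nkd1 and Axin2, the ligand Wnt6 and the secreted inhibitors Dkk1 and Wif1. Those that rose were the ligand Wnt2, the receptor Fzd1, the R-spondins Rspo1 and Rspo2, which strengthen Wnt signals, and the inhibitor Dkk2.

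Dkk1 (ENSMUSG00000024868, chr19:30545863-30549665, minus strand, GRCm38), an inhibitor that binds the Wnt co-receptors and is itself switched on by Wnt, was at 39.1 CPM in WT, 45.8 in HET, 4.92 in KO 1 and 3.43 in KO 2. Both KO libraries lay far below both controls, and the fall was -3.36 ± 0.20 (SE; adjusted p = 0.00109). In thinned cells a Dkk1 UMI was found in 15.4% of WT, 15.8% of HET, 2.2% of KO 1 and 1.88% of KO 2 rule cells. In barcodes with at least 3 macrophage genes that were neither rule cells nor epithelial cells, the share for Dkk1 was 0 of 23, 0 of 50, 1 of 95 and 1 of 75. Fibroblast genes were not limited in these macrophage-gene barcodes, so some of them may hold fibroblast RNA.

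The start of Dkk1 is shown because this gene fell most among the fibroblast genes above 20 CPM and is a textbook Wnt target. The run is the minus strand, 5′ to 3′, chr19:30549597-30549623 of GRCm38.p6, read from the RefSeq promoter table, and its capitals mark the core letters CTTTGAA that TCF and LEF factors can bind.

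Dkk1: cctcccaaagCTTTGAAatcccatccc

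The match starts 117 bases before the RefSeq start, and GENCODE M21 places it in the 5′ UTR of the first exon. The letters CTTTGAA or CTTTGAT, searched on both strands, occur in 2457 of 32851 RefSeq windows of 250 bases (7.48%). Of the 13 Wnt genes past the threshold, 10 were in that table and Dkk1 alone had a match there. The match is a description of letters and not a measured site.

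Lef1 (ENSMUSG00000027985, chr3:131110471-131224356, plus strand), the factor through which beta-catenin acts on its targets, was at 68.7 and 65 CPM in WT and HET and at 13.8 and 12.9 CPM in KO 1 and KO 2. The arms were far apart and the libraries within each arm close, with a change of -2.32 ± 0.12 (adjusted p = 0.00109). A Lef1 UMI was found in 25.6% and 24% of thinned control cells and in 6.74% and 6.46% of KO cells. It was found in 0 of 23, 2 of 50, 5 of 95 and 1 of 75 macrophage-gene barcodes. The KO 1 share of Lef1 in rule cells was near that in the KO 1 macrophage-gene barcodes. Nkd1 was at 180, 154, 71.3 and 67.3 CPM (-1.27 ± 0.12, adjusted p = 0.00451). Axin2, the usual reporter of Wnt activity, was at 43, 41.4, 25 and 25.5 CPM, a fall of -0.74 ± 0.12 (adjusted p = 0.0181) that was not called without cells that had 3 markers of another cell type (-0.54, adjusted p = 0.0502).

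The other transducers were not past the threshold. Ctnnb1, which encodes beta-catenin, was at 216, 215, 187 and 175 CPM (-0.25 ± 0.10, adjusted p = 0.202), Tcf7 at 13.6, 12.4, 8.1 and 4.72 CPM (-1.03 ± 0.27, adjusted p = 0.0734), and Tcf7l2 overlapped between arms. Among the targets outside Axin2 and Nkd1, Sp5 overlapped between arms as well (26.8, 32.9, 33.4 and 31.4 CPM).

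Among ligands and modulators, Wnt6 was at 33.1, 32.9, 11.2 and 10.8 CPM (-1.58 ± 0.13, adjusted p = 0.00388). Wif1, which captures Wnt ligands, was at 199, 203, 64.7 and 105 CPM (-1.24 ± 0.21). Kremen1, a co-receptor for Dkk1, was at 29.8, 28.1, 16.3 and 12.9 CPM (-0.99 ± 0.16), and was not called with thinned cells (adjusted p = 0.0618). Rspo3 was at 110, 97.2, 60.2 and 63.7 CPM (-0.74 ± 0.12), while its relative Rspo1 was at 59, 74, 204 and 127 CPM (1.31 ± 0.23, adjusted p = 0.0236). The R-spondins thus differed in direction. Rspo2 had no UMI in either control library, 15 in KO 1 and 20 in KO 2, at least 7.21-fold higher against a floor of 3 counts over the control arm. Its call was lost without HET, KO 1 or KO 2 (adjusted p = 0.0649, 0.0505 and 0.0834). Wnt2 was at 14, 3.5, 44.6 and 35.6 CPM (2.34 ± 0.45, adjusted p = 0.0313), with WT between HET and the KO libraries, and was not past the threshold by DESeq2 (adjusted p = 0.154). Dkk2 was at 20.7, 10, 53.6 and 44.5 CPM (1.74 ± 0.29) and Fzd1 at 26.6, 21.7, 50.3 and 38.7 CPM (0.89 ± 0.17), the latter not called without cells that had a UMI of Sox2, Sox18 or Foxd1 (adjusted p = 0.053).

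Of 19 genes that mark the dermal condensate, all were tested, 11 fell and 0 rose, and the median was -1.80. The arms did not overlap for 15 of the 19, against 55.2% of all genes tested. By role, 6 of 9 transcription factors, 3 of 8 signals and receptors and both others (Cdkn1a and Stmn2) fell.

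The factors most specific to the condensate were close to absent in KO. Sox2, a factor of condensate cells, had 24 UMIs in WT, 40 in HET, 0 in KO 1 and 1 in KO 2, a control to KO ratio of depth-scaled counts of 104 (exact 95% interval 17.9 to 4153, counting error only). Foxd1 had 43, 42, 1 and 1 UMIs, a ratio of 68.8 (18.5 to 577). Sox18 (ENSMUSG00000046470, chr2:181669836-181671640, minus strand), a factor also known from endothelium, had 94, 68, 2 and 2 UMIs, or 19.1, 8.2, 0.205 and 0.172 CPM (-6.04 ± 0.63, adjusted p = 0.00579). The 7 endothelial genes summed to 30.0, 47.4, 34.4 and 38.2 CPM and 0 of 7 passed the threshold in either direction. The rule had already left out barcodes with a UMI of the endothelial gene Cdh5, and the source of the Sox18 RNA was not tested. In thinned cells a Sox18 UMI was found in 6.63% of WT, 2.93% of HET, 0 of 682 KO 1 cells, which allows up to 0.44%, and 0.117% of KO 2 cells. The KO shares of Sox18 were not above those in macrophage-gene barcodes (0 of 23, 1 of 50, 1 of 95 and 1 of 75).

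Cells carrying these RNAs were few. At least 1 of Sox2, Sox18 and Foxd1 had a UMI in 45 WT cells (12.7%), 49 HET cells (8.78%), 3 KO 1 cells (0.432%) and 4 KO 2 cells (0.460%). At least 2 of them were seen together in 16, 19, 0 and 0 cells, and all 3 in 6, 7, 0 and 0.

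**Figure D1:**
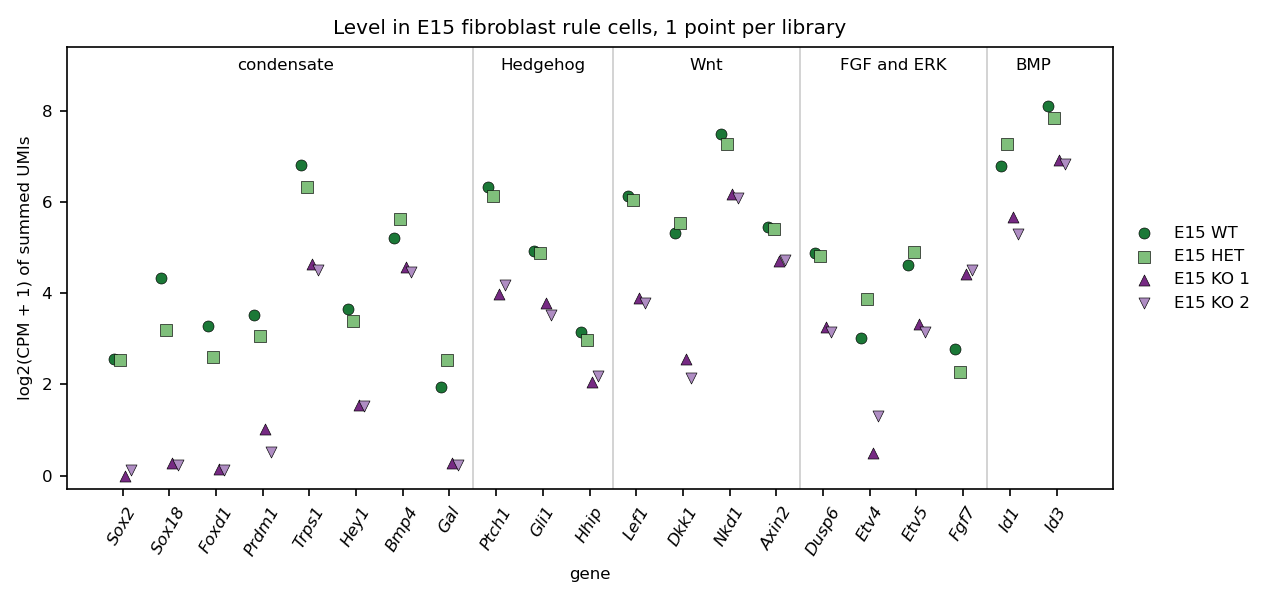
Summed level of 21 genes in the rule cells of each E15 library, as log2(CPM + 1) on the vertical axis, 1 point per library and genes grouped by list. The 2 KO libraries lie below the 2 control libraries for all genes drawn except Fgf7, which lies above them; Sox2, Foxd1, Sox18 and Gal are near 0 in KO.

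Prdm1, a repressor found in early condensates, had 52, 61, 10 and 5 UMIs (-3.61 ± 0.44, adjusted p = 0.00847). Trps1 (ENSMUSG00000038679, chr15:50654752-50890463, minus strand), a GATA-type repressor mutated in a human hair and face syndrome, was at 111, 79.7, 24 and 21.9 CPM (-2.05 ± 0.18, adjusted p = 0.00388). Hey1, a Notch-responsive factor, was at 11.6, 9.52, 1.95 and 1.89 CPM (-2.44 ± 0.27). Each of the 3 was lower in both KO libraries than in either control, where the arms did not overlap for 55.2% of all genes tested.

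The signals were mixed. Bmp4, the main mesenchymal BMP of the follicle, was at 36.3, 48.5, 23 and 21.1 CPM (-0.96 ± 0.16, adjusted p = 0.0215). Gal, which encodes the peptide galanin, had 14, 40, 2 and 2 UMIs (-4.29 ± 0.57). Stmn2, a tubulin-binding protein better known from neurons, was at 248, 195, 83.3 and 38.2 CPM (-1.87 ± 0.32), and Cdkn1a, a cell cycle inhibitor, at 59.8, 62.3, 24.9 and 32.5 CPM (-1.09 ± 0.15). Neuron marker RNA was low throughout, 1.83, 4.58, 9.33 and 5.32 CPM summed over 6 genes, and the source of the Stmn2 RNA was not tested. Not past the threshold were Cxcr4 (-3.20 ± 0.77, adjusted p = 0.0555), Alx4 (-1.80 ± 0.48, adjusted p = 0.071), Ebf1 (-0.49 ± 0.19), Inhba (-0.26 ± 0.16), Ntn1 (0.04 ± 0.17), Tbx18 (0.04 ± 0.21), Bmp3 (0.31 ± 0.35) and Enpp2 (0.39 ± 0.13). DESeq2 called Cxcr4 (adjusted p = 0.0301), and without HET the fit called Cxcr4, Alx4 and Ebf1 (adjusted p = 0.00705, 0.0435 and 0.0312); without WT it called Bmp3 as higher in KO (1.06, adjusted p = 0.00654).

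The 101 cells with a UMI of Sox2, Sox18 or Foxd1 were then left out of every library, an alternative chosen after the data were seen. Of the 11 condensate genes called over all rule cells, 5 still fell: Hey1, Trps1, Rspo3, Cdkn1a and Stmn2. Bmp4 was tested and lost its call. Sox2, Sox18 and Foxd1 had no UMI left by definition, and Prdm1 and Gal had no test there. Trps1 was -1.75 without these cells (adjusted p = 0.00421). Bmp4 was -0.17 (adjusted p = 0.657) and Enpp2, an enzyme that makes lysophosphatidic acid, was then called as higher in KO (0.86, adjusted p = 0.0194). Over all genes, 609 passed the threshold, of which 565 were among the 750.

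Of 14 Hedgehog pathway genes tested, 5 fell and 0 rose (median -0.43), among them the receptor Ptch1, which Hedgehog signals also induce, the factor Gli1, the inhibitor Hhip and the survival gene Bcl2. The ligands could not be tested: Shh had 0, 5, 0 and 0 UMIs in the rule cells and Ihh 1, 0, 0 and 1.

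Ptch1 (ENSMUSG00000021466, chr13:63508328-63573598, minus strand) was at 79.3 CPM in WT, 69.7 in HET, 14.9 in KO 1 and 17.2 in KO 2, a fall of -2.21 ± 0.14 (adjusted p = 0.00123). A Ptch1 UMI was found in 28.6%, 25.6%, 7.18% and 8.69% of thinned rule cells. It was also found outside the rule, in 21.7%, 12%, 3.16% and 4% of the 23, 50, 95 and 75 macrophage-gene barcodes. Gli1, the usual readout of the pathway, was at 29.6, 28.6, 12.8 and 10.6 CPM (-1.32 ± 0.15, adjusted p = 0.00727), and was not called with cells thinned to 5000 UMIs (-0.73, adjusted p = 0.0879). Neither Ptch1 nor Gli1 overlapped between the arms, nor did 55.2% of all genes tested.

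Hhip was at 7.91, 6.87, 3.18 and 3.52 CPM (-1.13 ± 0.26, adjusted p = 0.0496) and Bcl2 at 74.2, 77, 54 and 49 CPM (-0.55 ± 0.11, adjusted p = 0.0361). Hhip lost its call when any of the 4 libraries was left out (adjusted p = 0.0955, 0.0603, 0.126 and 0.118 without WT, HET, KO 1 and KO 2), and Bcl2 without HET, KO 1 or KO 2 (adjusted p = 0.0564, 0.0546 and 0.161). Gli2, the main activator, was at 26.8, 20.3, 15.2 and 11.5 CPM (-0.81 ± 0.20, adjusted p = 0.0621) and was called without HET or KO 1 (adjusted p = 0.0129 and 0.0265). Smo was at 78.1, 62.8, 57.9 and 56.8 CPM (-0.29 ± 0.13), Gli3 at 23.9, 27.1, 22.5 and 22.4 CPM (-0.19 ± 0.13) and Ccnd1, a cyclin that several pathways induce, at 183, 187, 148 and 145 CPM (-0.34 ± 0.10, adjusted p = 0.0981). The co-receptors Boc (-0.01 ± 0.17), Cdon (0.16 ± 0.12) and Gas1 (0.09 ± 0.15), the inhibitor Sufu (0.02 ± 0.15) and Mycn (-0.53 ± 0.38) had adjusted p of 0.977, 0.476, 0.747, 0.953 and 0.451. Without cells that had a UMI of Sox2, Sox18 or Foxd1, Ptch1 was -1.69 (adjusted p = 0.00354), and Gli1 also kept its call (-1.13, adjusted p = 0.0149), while Hhip was -0.26 and Bcl2 -0.44 (adjusted p = 0.687 and 0.0821). The letters GACCACCCA, a core that Gli factors can bind, occur on either strand in 74 of the 32851 RefSeq windows (0.225%) and in none of the 3 called Hedgehog genes found in that table.

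Of 19 FGF and ERK pathway genes tested, 10 fell and 2 rose, with a median of -0.77. All 3 ETS factors that ERK induces (Etv1, Etv4 and Etv5) fell, as did 5 of 7 inhibitors and 2 of 5 receptors; 2 of 4 ligands, Fgf7 and Fgf18, rose. Without cells that had 3 markers of another cell type 6 fell: Fgfr2, Spry4, Spred1 and Spred2 were then not called (adjusted p = 0.0588, 0.0875, 0.0682 and 0.0771).

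Fgfr1 (ENSMUSG00000031565, chr8:25513654-25575718, plus strand), the main FGF receptor of mesenchyme, was at 318, 287, 135 and 125 CPM (-1.22 ± 0.11, adjusted p = 0.00442). The difference was spread over many cells: an Fgfr1 UMI was found in 71.1% and 70.7% of thinned control cells and in 45.6% and 45.7% of KO cells, with 13%, 18%, 18.9% and 10.7% in macrophage-gene barcodes. Fgfr2 was at 52.5, 44.7, 29 and 24.5 CPM (-0.86 ± 0.14, adjusted p = 0.021).

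Dusp6, the phosphatase that ERK induces against itself, was at 28.4, 27.2, 8.51 and 7.81 CPM (-1.77 ± 0.15, adjusted p = 0.00388). Etv5 was at 23.5, 29.1, 9.03 and 7.81 CPM (-1.66 ± 0.18), Etv1 at 10.7, 13.3, 3.38 and 2.75 CPM (-1.98 ± 0.25) and Etv4 at 7.1, 13.6, 0.41 and 1.46 CPM (-3.43 ± 0.52). Every one of these 4 targets was lower in both KO libraries than in either control, where the arms did not overlap for 55.2% of all genes tested. Spry1, a receptor-level inhibitor, was at 36.9, 34.4, 21.1 and 17.8 CPM (-0.87 ± 0.14, adjusted p = 0.0183). Spry4 (-1.05 ± 0.22), Spred1 (-0.62 ± 0.12) and Spred2 (-0.77 ± 0.17) had adjusted p of 0.038, 0.0329 and 0.0418. These 3 calls were lost without KO 2 (adjusted p = 0.063, 0.138 and 0.156), those of Spry4 and Spred2 also without HET (adjusted p = 0.0942 and 0.0611) and that of Spry4 without KO 1 (adjusted p = 0.103).

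Fgf7 (ENSMUSG00000027208, chr2:126034658-126091185, plus strand), a mesenchymal growth factor for keratinocytes, was at 5.88 and 3.86 CPM in WT and HET and at 20.3 and 21.8 CPM in KO (2.16 ± 0.22, adjusted p = 0.00561). Fgf18 was at 2.23, 0.723, 7.69 and 9.36 CPM (2.67 ± 0.44, adjusted p = 0.0195). Fgf10, another mesenchymal ligand, was at 16.2, 15.7, 13.1 and 13.7 CPM and did not pass the threshold (-0.24 ± 0.15, adjusted p = 0.392).

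In the BMP list 6 of 22 genes fell and 0 rose, with a median of -0.06. Among its targets, Id1 (ENSMUSG00000042745, chr2:152736251-152737410, plus strand), an inhibitor of basic helix-loop-helix factors, was at 110, 154, 49.9 and 38.6 CPM (-1.58 ± 0.19, adjusted p = 0.00908). Id2 was at 205, 163, 92.2 and 97.7 CPM (-0.95 ± 0.14) and Id3 at 276, 228, 120 and 112 CPM (-1.11 ± 0.13, adjusted p = 0.00727). These 3 targets moved together and none overlapped between the arms, nor did 55.2% of all genes tested. Among the secreted antagonists, Nog, which encodes noggin, fell too (9.13, 7.47, 3.38 and 2.58 CPM, -1.47 ± 0.28, adjusted p = 0.0295). The Nog call was lost with thinned cells, and over all alternatives its adjusted p ran up to 0.181. Nog was not called without KO 2 (adjusted p = 0.0859). None of the 4 receptors passed the threshold; Bmpr1a was at 42.6, 39.3, 39.8 and 36.1 CPM.

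**Figure D2:**
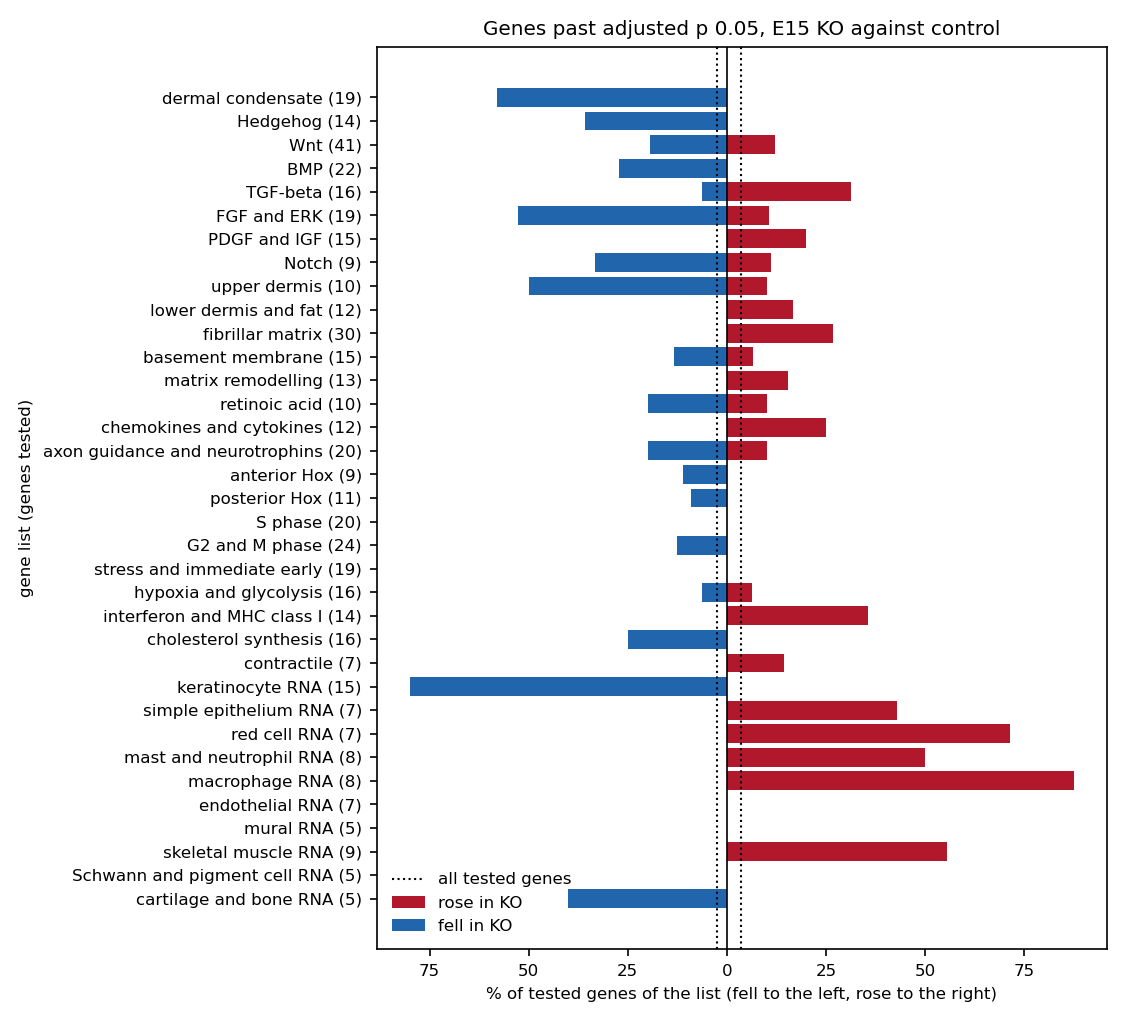
Share of the tested genes of each list that fell (left, blue) or rose (right, red) in KO at an adjusted p under 0.05, in percent on the horizontal axis, with the number tested in brackets and dotted lines at the shares of all tested genes, 2.48% and 3.6%. The longest bars are those of lists of other cell types, keratinocyte (12 of 15) to the left and macrophage (7 of 8) and red cell (5 of 7) to the right. Condensate, FGF and ERK, and upper dermis lists also reach to the left, matrix and interferon lists to the right, and the S phase and stress lists have no bar.

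In the Notch list 3 of 9 genes fell, Hey1, the ligand Dll1 (6.29, 3.86, 0.308 and 0.515 CPM, -3.52 ± 0.50, adjusted p = 0.0141) and the receptor Notch1 (-0.99 ± 0.22, adjusted p = 0.0464), and Hes1 rose (0.56 ± 0.11, adjusted p = 0.0342). Notch1 was not called without cells that had a UMI of Sox2, Sox18 or Foxd1 (-0.56, adjusted p = 0.218), nor without cells that had 3 markers of another cell type (-1.06, adjusted p = 0.0594). Hes1 was not called without HET or KO 1 (adjusted p = 0.074 and 0.0953). In the TGF-beta list 5 of 16 rose and Cdkn1a fell: the ligands Tgfb2 (12.4, 11.6, 55.9 and 42 CPM, 2.03 ± 0.18, adjusted p = 0.00433) and Tgfb3 (1.15 ± 0.21), and the matrix genes Postn, Tgfbi and Timp1. Timp1 lost its call without WT, KO 1 or KO 2 (adjusted p = 0.0786, 0.0555 and 0.111). In the PDGF and IGF list 3 of 15 rose and 0 fell. Igf2, a fetal growth factor, was at 711, 598, 1495 and 1614 CPM (1.25 ± 0.13, adjusted p = 0.00579), with a UMI of Igf2 in 68.4%, 71.1%, 92.5% and 91.7% of thinned rule cells and in 8.7%, 38%, 63.2% and 62.7% of macrophage-gene barcodes. Pdgfrl (1.33 ± 0.12) and the IGF-binding Igfbp4 (1.16 ± 0.21) were the others.

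Of 30 fibrillar matrix genes 8 rose and 0 fell, and 29 had a positive fold change, with a median of 0.59. Glycoproteins and proteoglycans gave 6 of the 8, and 1 of 10 collagens was called. Eln, which encodes elastin, was at 122, 107, 260 and 261 CPM (1.19 ± 0.11, adjusted p = 0.00451), with an Eln UMI in 29.2% and 32.8% of thinned control cells and 62.5% and 59.2% of KO cells, against 8.7%, 6%, 28.4% and 16% of macrophage-gene barcodes. Col14a1, a collagen that decorates fibrils, was at 64.9, 58.1, 143 and 142 CPM (1.21 ± 0.11, adjusted p = 0.00442).

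Fibronectin (Fn1) was at 269, 199, 446 and 418 CPM (0.89 ± 0.16, adjusted p = 0.0241) and Postn, which encodes periostin, at 304, 145, 554 and 726 CPM (1.52 ± 0.32, adjusted p = 0.0379). Vcan (0.88 ± 0.15), Bgn (0.61 ± 0.11), Ogn (1.28 ± 0.30) and Tnxb (2.22 ± 0.40) were also called. The main fibrillar collagens were not: Col1a1 was at 4897, 4087, 5110 and 6314 CPM (0.35 ± 0.16, adjusted p = 0.244) and Col3a1 changed by 0.18 ± 0.13 (adjusted p = 0.428). Of 15 basement membrane genes, Col7a1 (90.2, 96.6, 47.1 and 52.5 CPM, -0.91 ± 0.12), which encodes the anchoring fibrils, and Frem1 (45.8, 39.2, 22.9 and 18.1 CPM, -1.05 ± 0.16), a protein that ties epidermis to dermis, fell, and Nid2 rose (0.77 ± 0.14). Nid2 was not called without HET or KO 2 (adjusted p = 0.0529 and 0.0647).

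Upper dermis genes fell in 5 of 10 (Lef1, Axin2, Dkk1, Prdm1 and Cyp26b1, which degrades retinoic acid: 38.5, 29.5, 16.4 and 9.87 CPM, -1.37 ± 0.25), and 1 rose, Dpp4 (6.89, 1.81, 18.9 and 29.8 CPM, 2.65 ± 0.47, adjusted p = 0.0255). Cyp26b1 was not called without cells that had a UMI of Sox2, Sox18 or Foxd1 (-0.97, adjusted p = 0.0742). Dpp4 did not pass by DESeq2 (adjusted p = 0.0805). Crabp1, an upper dermis retinoid-binding protein, overlapped between arms (1940, 2703, 2018 and 1523 CPM). Of 12 lower dermis and fat genes 2 rose, Cd34 (87.8, 60.4, 162 and 213 CPM, 1.35 ± 0.20, adjusted p = 0.0167) and Tnxb, with a median of 1.71. Tnxb was not called without cells that had 3 markers of another cell type (1.68, adjusted p = 0.0728). Several of the rest had large differences and a wide gap between WT and HET: Ly6a was at 26.4, 3.5, 68.8 and 85.9 CPM (adjusted p = 0.0607), Mfap5 at 80.5, 11.3, 120 and 233 CPM (adjusted p = 0.151) and Clec3b at 113, 27.1, 141 and 220 CPM (adjusted p = 0.178).

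Rule cells were therefore split by depth. A cell was put in the superficial range when more of 6 superficial genes (Crabp1, Lef1, Apcdd1, Ntn1, Cyp26b1 and Tnfrsf19) than of 7 deep genes (Mfap5, Clec3b, Ly6a, Cd34, Tnxb, Pi16 and Dpt) had a UMI, and in the deep range in the reverse case. These are ranges of a count and not cell types. The superficial range held 66.9% of rule cells in WT, 72.6% in HET, 35.6% in KO 1 and 23.6% in KO 2, or 69.7% ± 4.05 in control and 29.6% ± 8.49 in KO (SD, n = 2 each). The deep range held 20.7%, 11.3%, 37.9% and 51.8%, or 16.0% ± 6.64 and 44.8% ± 9.82. For both, the exact two-sided permutation test gave p = 0.333, the smallest these 4 libraries allow. Ties numbered 44, 90, 184 and 214 cells, and 156, 261, 445 and 543 cells lay within 1 gene of the boundary. Lef1 and Cyp26b1 are themselves among the genes that fell and Cd34 and Tnxb among those that rose, so the shares were not independent of the gene results. With the superficial list left out, at least 3 deep genes had a UMI in 23.5%, 11.5%, 37.3% and 48.6% of rule cells.

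**Figure D3:**
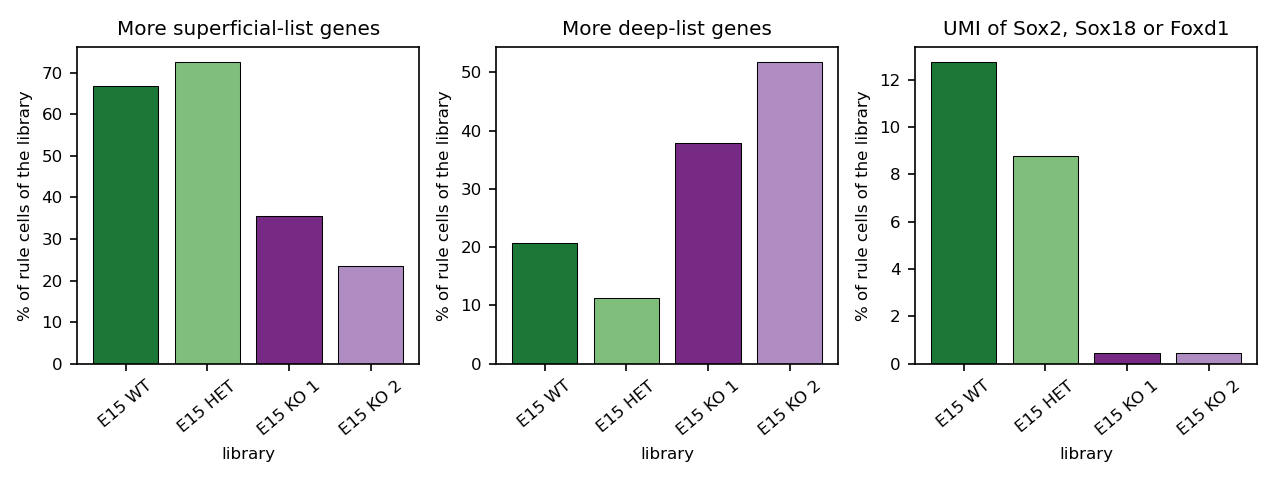
Share of rule cells in the superficial range, in the deep range, and with a UMI of Sox2, Sox18 or Foxd1, in percent of the rule cells of each E15 library (vertical axis), 1 bar per library. The superficial share is 66.9% and 72.6% in control against 35.6% and 23.6% in KO, the deep share is higher in both KO libraries, and the third share is 12.7% and 8.78% against 0.432% and 0.460%.

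Within the superficial range alone, 368 of 10571 genes passed the threshold (3.48%; 190 or 1.8% higher and 178 or 1.68% lower in KO). The condensate list fell in 12 of 18 genes tested. Dkk1 was -2.65 ± 0.18 (adjusted p = 0.000305), Ptch1 -1.86 ± 0.25 (adjusted p = 0.00612), Fgfr1 -1.14 ± 0.12 (adjusted p = 0.00243) and Id1 -1.56 ± 0.19 (adjusted p = 0.00408). Gli1 was -0.68 and not called (adjusted p = 0.0718). Matrix genes rose in 10 of 29, with Eln at 1.74 ± 0.15 (adjusted p = 0.000794). Cxcl12, the chemokine that binds Cxcr4, was 1.62 ± 0.11 (adjusted p = 0.000305). For the E15 KO against control in the superficial range, DESeq2 called 237 genes, leaving out HET gave 662, and leaving out the 101 cells with Sox2, Sox18 or Foxd1 UMIs gave 232.

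Within the deep range, 46 of 10394 genes passed (0.443%; 28 or 0.269% higher and 18 or 0.173% lower in KO). Its control libraries held 73 and 63 cells, against 263 and 450 in KO. Of the condensate, Hedgehog, Wnt, BMP, and FGF and ERK lists, 0 genes were called there. Ifi27 (1.20 ± 0.20, adjusted p = 0.0304), Stmn4 (2.79 ± 0.44, adjusted p = 0.0271) and Tppp3 (1.83 ± 0.30, adjusted p = 0.0287) rose, and Insig1 fell (-1.15, adjusted p = 0.0468). Keratin, C1q and haemoglobin RNAs made up much of the rest of the named ones. Leaving out KO 1 gave 202 genes and leaving out KO 2 gave 144. The difference between the ranges was not tested.

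**Figure D4:**
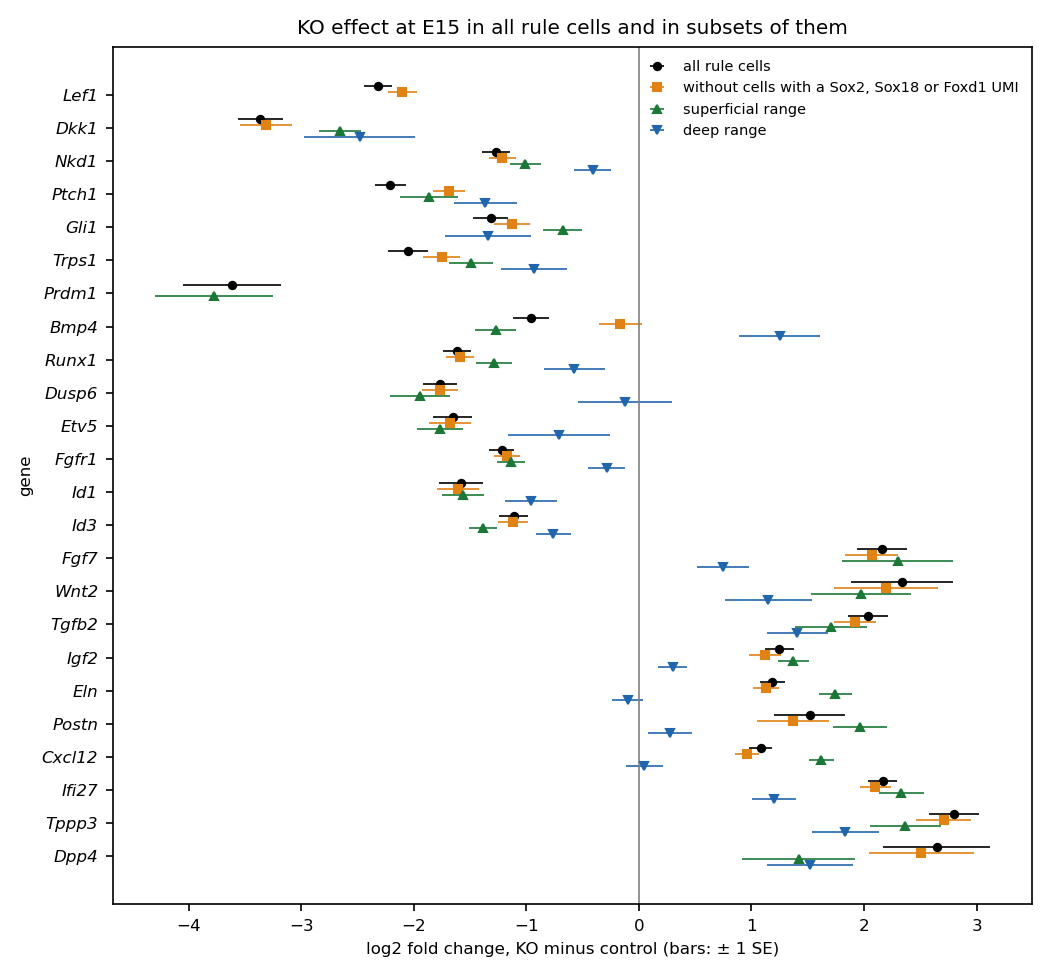
Log2 fold change, KO minus control (horizontal axis, bars 1 SE), of 24 named genes in all E15 rule cells, without cells that have a UMI of Sox2, Sox18 or Foxd1, in the superficial range and in the deep range. Dkk1, Ptch1, Fgfr1 and Dusp6 are below 0 in each set, Lef1 is not drawn in the ranges that it helps to define, Bmp4 is near 0 without the condensate-gene cells (-0.17), and Eln and Cxcl12 lie near 0 in the deep range.

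The genes that rose most, above 20 CPM and outside the lists of other cell types, included Stmn4, Cbln2, Tppp3, Efhd1, Dpp4, Anxa3, Nov and Car2. Stmn4 (chr14:66344296-66361680, plus strand), a stathmin that binds tubulin, was at 2.23, 0.965, 29.1 and 21.2 CPM (4.09 ± 0.34, adjusted p = 0.00388). Tppp3 (chr8:105467493-105471526, minus strand), a tubulin-polymerising protein also known from tendon sheath cells, was at 9.33, 5.3, 49.5 and 47.7 CPM (2.80 ± 0.22, adjusted p = 0.00365). In KO 1 and KO 2 a Tppp3 UMI was found in 8.5% and 10.8% of thinned rule cells and in 9.47% and 10.7% of macrophage-gene barcodes. A Stmn4 UMI was found in 6.89% and 5.4% against 6.32% and 5.33%. Per-cell shares of these RNAs thus did not stand clearly above those of macrophage-gene barcodes. Nov, a matricellular protein, was at 21.5, 5.91, 72.8 and 73.5 CPM (2.52 ± 0.43), Cbln2 at 5.88, 1.57, 27.4 and 21.5 CPM (2.87 ± 0.43), Efhd1 at 7.1, 1.21, 22.7 and 25.6 CPM (2.74 ± 0.51) and Anxa3 at 8.92, 5.18, 39.7 and 40.3 CPM (2.57 ± 0.22). DESeq2 did not call Efhd1 or Nov (adjusted p = 0.178 and 0.0624). Car2 (2.52 ± 0.39) is also a red cell gene and lost its call without cells that had 3 markers of another type (adjusted p = 0.0964).

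The genes that fell most by the same rule were Dkk1, Ism1, Lef1, Ptch1, Trps1, Stmn2, Dusp6, Hs3st6, Etv5 and Runx1. Runx1 (chr16:92601466-92826149, minus strand), a transcription factor of hair follicle epithelium and mesenchyme, was at 58, 55.5, 19.3 and 17.7 CPM (-1.62 ± 0.12, adjusted p = 0.00305). Ism1, a secreted protein, was at 23.3, 19.8, 4.1 and 4.38 CPM (-2.33 ± 0.19, adjusted p = 0.00388). Hs3st6, a heparan sulphate sulphotransferase, was at 28.4, 16.8, 6.67 and 6.95 CPM (-1.70 ± 0.27, adjusted p = 0.0181) and at -0.26 without the cells that had a UMI of Sox2, Sox18 or Foxd1 (adjusted p = 0.543). Runx1 was at -1.59 without those cells.

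RNA of other cell types moved with the genotype and its part in these results was not tested. Keratinocyte genes fell in 12 of 15 and summed to 1952, 715, 116 and 255 CPM; Krt14 was at 243, 131, 0.103 and 1.2 CPM. Of the genes past the threshold, 49 of the 306 that fell and 12 of the 444 that rose were over 5 times higher in epithelial cells. These cells had at least 3 epithelial and fewer than 3 fibroblast genes and numbered only 10 in WT, 5 in HET, 1 in KO 1 and 7 in KO 2. Each gene was compared in the arm where it was higher, so the counts for falls and rises rest on different cells. The share among all genes tested was not computed. Called genes over 5 times higher in epithelial cells included Ly6d, Calm4, Krt77, BC100530 and Lmo1, which fell, and Foxp1, Cryab and Txnip, which rose. Cryab lost its call without WT or KO 2 (adjusted p = 0.0505 and 0.121) and Txnip without HET or KO 2 (adjusted p = 0.0571 and 0.0589). Simple epithelium genes rose in 3 of 7 (Krt8, Krt19 and Cldn3) with sums of 31.0, 18.6, 37.8 and 46.7 CPM; Krt8 was not called without HET or KO 1 (adjusted p = 0.0585 and 0.0558), Cldn3 by DESeq2 (adjusted p = 0.451) or Krt19 with thinned cells (adjusted p = 0.0508).

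Red cell genes rose in 5 of 7 with sums of 4614, 11570, 31658 and 56676 CPM. Macrophage genes rose in 7 of 8 (55.6, 102, 238 and 207 CPM), mast cell and neutrophil genes in 4 of 8 (263, 606, 1135 and 1572 CPM, with Fcer1a at 0 in every library) and skeletal muscle genes in 5 of 9 (29.0, 26.9, 124 and 81.7 CPM). Mural, Schwann and pigment cell, and neuron genes had 0 called. Of 5 cartilage and bone genes 2 fell: Ibsp had 17, 25, 0 and 0 UMIs, at least 22.7-fold lower in KO, and Col9a1 was -1.12 ± 0.25, a call lost without HET, KO 1 or KO 2 (adjusted p = 0.0979, 0.123 and 0.0758). Markers of another cell type were counted over the macrophage, endothelial, mural, skeletal muscle, Schwann and pigment cell, neuron, and cartilage and bone lists. The keratinocyte, simple epithelium, red cell, and mast cell and neutrophil lists were not used for this count. Rule cells with at least 3 markers of 1 other type made up 9.07%, 9.32%, 25.2% and 15.0%. In the E15 fibroblast KO against control without them, 532 genes passed (285 higher, 247 lower, 477 of them among the 750). Red cell genes were then called as higher in 0 of 7 and macrophage genes in 2 of 8, the macrophage list being 1 used to leave cells out. Hba-a1, Hba-a2 and Hbb-bt lost their calls but not their direction. Over all alternatives their lowest log2 fold changes were 1.43, 1.99 and 1.61. Leaving out cells with a UMI of Sox2, Sox18 or Foxd1 instead also left only 1 red cell gene called. Without the cells with markers of another type, Dkk1 (-3.25), Lef1 (-2.10), Ptch1 (-2.06), Fgfr1 (-1.13), Dusp6 (-1.79), Id3 (-1.23), Eln (1.39) and Cxcl12 (1.25) were all still called. Keratinocyte genes still fell in 12. FGF and ERK genes then fell in 6 where 10 had fallen, and Hedgehog genes in 3 where 5 had. Hhip and Bcl2 were then not called (adjusted p = 0.0884 and 0.101).

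The age at which these differences were present was asked of the E13 libraries, where the same rule gave 2124 cells. The change of the KO effect between ages was tested as an interaction over all 8 libraries, and 210 of 13280 genes (1.58%) passed, 135 with a higher and 75 with a lower KO effect at E15. By list these included 5 condensate, 5 Wnt, 5 BMP, 5 FGF and ERK, and 5 fibrillar matrix genes, and Ptch1 alone of the Hedgehog list, beside 6 of 7 red cell and 3 of 8 macrophage genes. All E13 libraries had Xist RNA at 1036 to 1337 CPM and 0 UMIs of 4 Y-linked genes, and all E15 libraries had Xist at 0.308 to 0.426 CPM and 129 to 168 CPM of Y-linked RNA, so age and sex cannot be told apart. Rule cells were 34.7% of the kept barcodes in E13 KO 2.

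Lef1 was lower in KO at both ages. At E13 it was at 64.2, 66.6, 34.4 and 33.9 CPM in WT, HET, KO 1 and KO 2 (-0.93 ± 0.11, adjusted p = 0.00417), and the difference was larger by 1.36 ± 0.15 on the log2 scale at E15 (interaction -1.36, adjusted p = 0.00978). Dkk1 at E13 was at 22.8, 32.5, 28.1 and 24.1 CPM, with the KO libraries between the controls, and its interaction was -3.27 ± 0.30 (adjusted p = 0.0054). Ptch1 at E13 was low everywhere, at 3.25, 2.93, 2.07 and 3.25 CPM, against 79.3 and 69.7 CPM in the E15 controls (interaction -1.84 ± 0.31, adjusted p = 0.0225). Trps1 was likewise low at E13 (4.42, 4.43, 6.2 and 4.41 CPM; interaction -2.36 ± 0.30, adjusted p = 0.013). Fgfr1 at E13 overlapped between arms (94.5, 98.7, 87.5 and 107 CPM; interaction -1.19 ± 0.17, adjusted p = 0.0136).

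The Id genes were not lower in KO at E13: Id3 was at 420, 429, 485 and 419 CPM (interaction -1.18 ± 0.17, adjusted p = 0.0136) and Id1 at 159, 156, 212 and 164 CPM (interaction -1.82 ± 0.26, adjusted p = 0.0141). Eln (81.6, 77.3, 58.5 and 75.2 CPM at E13; interaction 1.48 ± 0.18, adjusted p = 0.013) and Cxcl12 (205, 167, 181 and 186 CPM; interaction 1.12 ± 0.16, adjusted p = 0.0136) gained a KO rise by E15. Vcan fell at E13 (-0.51 ± 0.10, adjusted p = 0.0439) and rose at E15 (interaction 1.42 ± 0.18, adjusted p = 0.013). Ifi27, an interferon-responsive gene, rose at both ages (1.81 ± 0.14 at E13 and 2.17 ± 0.13 at E15, adjusted p = 0.000336 and 0.00109) with no interaction past the threshold (0.38 ± 0.17, adjusted p = 0.297). Of 12 interferon and MHC class I genes tested at E13, 6 rose there. Among them Isg15 had the larger change at E13 (5.87, against 0.957 at E15, interaction -4.90 ± 0.91, adjusted p = 0.031). The number of genes with an interaction depended on single libraries: it was 73, 50, 21 and 89 without E13 WT, HET, KO 1 and KO 2 and 147, 173, 121 and 80 without the E15 libraries in that order.

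**Figure D5:**
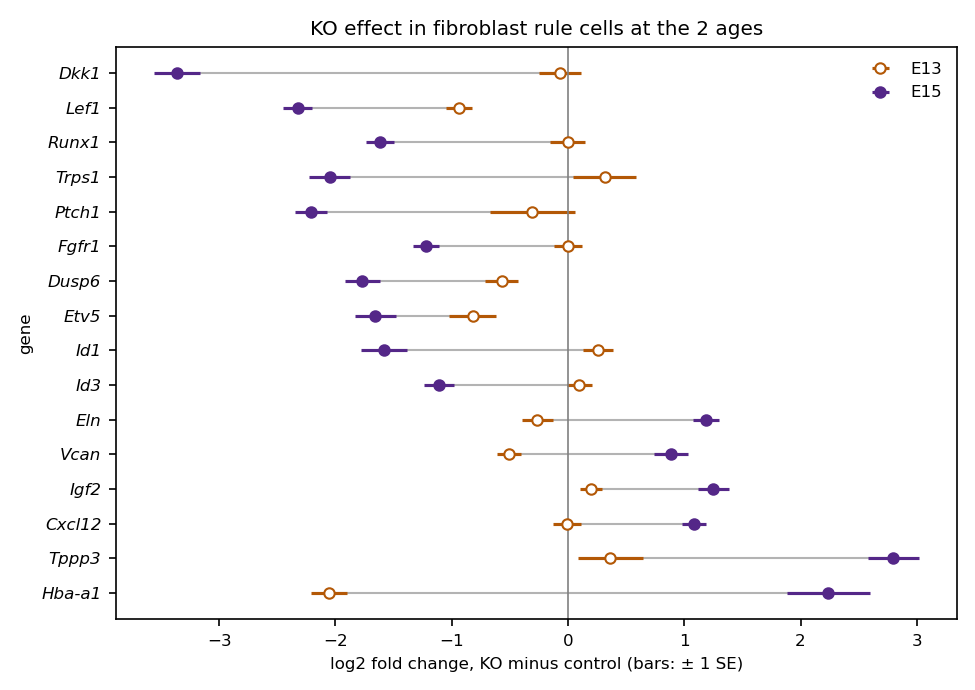
Log2 fold change, KO minus control (horizontal axis, bars 1 SE), of 16 genes in fibroblast rule cells at E13 (open) and E15 (filled). Dkk1, Runx1, Fgfr1 and Cxcl12 lie near 0 at E13 and away from it at E15, Lef1 is below 0 at both ages, and Hba-a1 changes sign.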

How the data were processed

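Values were deposited by the authors as counts: whole-number UMI counts per gene and barcode, not normalized, for 27998 genes in 8 libraries of embryonic back skin. Cell Ranger, Seurat and mm10 are named per the submitters' processing notes, without versions. Their barcode filter and annotation are not given in the sources used here. E15 libraries held 8177867 to 21551811 UMIs. Intervals and floors (3 counts) cover counting error only.

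UMIs of rule cells were summed per library and tested with edgeR 4.0.16 (limma 3.58.1, R 4.3.3): quasi-likelihood F test, TMM scaling, filterByExpr at a minimum count of 10, Benjamini-Hochberg adjustment over all genes tested, threshold 0.05. The standard error is the log2 fold change divided by the square root of F. With 2 libraries per arm the E15 fit had 2 residual degrees of freedom. The test was tried on simulated counts; at E15, when each simulated gene kept its own spread, false calls exceeded what the adjusted p allows. Shares of cells used each cell thinned to 5000 UMIs, which left out 12 to 21 cells per library. Median UMIs of macrophage-gene barcodes before thinning were 15394 to 20215.5. Shares and permutation tests used Python 3.11.15, scipy 1.17.1, numpy 2.4.6 and pandas 2.3.3.

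Doublets were scored per library against 2 simulated doublets per cell (scikit-learn 1.9.0, 1000 genes, 20 components) and removed in an alternative only; 2 to 6 rule cells per library were marked. At E15, 0 to 6 barcodes were shared between any 2 libraries. Gene positions came from GENCODE M21 (537 of 537 list genes matched) and promoter windows from RefSeq; 121 gene IDs share a symbol with another and were kept apart.

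Named were the 10 largest changes in each direction among called genes with at least 20 CPM in the higher arm, outside the rule and other-cell-type lists and not over 5 times higher in epithelial cells; the 5 largest in each direction left out by that last condition; every called gene of the condensate, Hedgehog, Wnt, BMP, FGF and ERK, PDGF and IGF, and upper dermis lists; the 3 smallest p in each other list; all condensate and Hedgehog genes tested; and the 5 interactions of smallest p. This gave 144 genes, 126 of them called. Other genes, such as Tgfb3, Fn1, Bgn, Ogn, Notch1, Ctnnb1, Ly6a and Col1a1, are quoted as list members outside this rule. Some genes that the rule names are not reported here. The cells, gene lists and comparisons were chosen with earlier results of these data known. Alternatives were DESeq2 1.42.0, its size factors, no TMM, no filter, other cell filters, thinned cells, no doublets, each library left out, and 2 subsets added after the data were seen.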

Additional observations from a re-analysis of the deposited data

Results flagged for a closer look

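The KO effect in fibroblast rule cells differed between E15 and E13 for 210 genes by the interaction test, and the 5 with the smallest p are given here as values. Age and sex cannot be told apart in these libraries. Gm10093, a predicted gene, differed by 3.88 ± 0.29 (adjusted p = 0.00129): it was at 34.9, 26.3, 2.07 and 1.39 CPM in E13 WT, HET, KO 1 and KO 2 and at 28.6, 26, 23.7 and 24.7 CPM at E15. Reads of a predicted gene may be shared with a near-identical copy, so its level is uncertain. Dkk1 differed by -3.27 (adjusted p = 0.0054), Runx1 by -1.59 (adjusted p = 0.00978; 18.9, 17.8, 19 and 17.2 CPM at E13) and Lef1 by -1.36 (adjusted p = 0.00978). Hba-a1, a haemoglobin gene, differed by 4.32 ± 0.46 (adjusted p = 0.00978), with 11374, 9852, 2958 and 2140 CPM at E13 and 1440, 3312, 9869 and 12580.4 CPM at E15, and lost its call under the stricter cell rule (3.06, adjusted p = 0.0573). Each of the 5 kept its direction and call with any 1 of the 8 libraries left out.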

How the results depend on the processing

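No paired analysis was possible because the control arm joins 1 WT and 1 HET library, and the labels give no replicate numbers that control and KO libraries share. For E15 fibroblast KO against control the number of genes past the threshold was 753, 2007 without the filter on low counts and 453 with cells thinned to 5000 UMIs; leaving out 1 library gave 533 to 919. For the difference of the KO effect between E15 and E13 it was 210, 1072 without the filter, 136 thinned and 21 to 173 with 1 library left out. For E15 KO against control in the superficial range it was 368, 237 by DESeq2, 1061 without the filter, 232 without cells with a UMI of Sox2, Sox18 or Foxd1, and 317 to 662 with 1 library left out. For E15 KO against control in the deep range it was 46, 334 without the filter, 16 thinned, 19 without cells with 3 markers of another cell type, and 37 to 202 with 1 library left out. Filter and thinning change how many genes or UMIs are tested; for the others the cause was not tested.

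The KO minus control difference in the share of rule cells was -3.03 points, 2.02 with the looser filter and 4.33 with the stricter rule. Of 126 named genes past the threshold at E15, 102 kept their call with any 1 library left out and 72 under every alternative run; 16 lost it by DESeq2, 22 thinned, 15 without condensate-gene cells and 27 without cells with markers of another type. In these counts a gene with no test in an alternative was counted as keeping its call there. Sox2, Sox18 and Foxd1, which have no UMI without condensate-gene cells, are among the 72 in this way, as are Prdm1 and Gal. Sign changes occurred only in 9 named genes that were past the threshold neither before nor after. With 1 library left out, Bmp3 ran from -0.27 to 1.06, Boc from -0.22 to 0.19, Gas1 from -0.086 to 0.26, Ntn1 from -0.17 to 0.24, Sufu from -0.061 to 0.13 and Tbx18 from -0.26 to 0.30. Thinned, Bmp3 was -0.13, Boc 0.40, Gli3 0.18 and Sufu -0.047. Boc was 0.0034 without the filter and 0.013 with all 8 libraries. Without condensate-gene cells Ebf1 was 0.28 and Inhba 0.26, and without cells of another type's markers Boc was 0.16 and Inhba 0.0071. Depth limits the values of genes with few UMIs: Sox2, Sox18 and Foxd1 had 1 to 4 UMIs in all KO rule cells together.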

Other observations

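Genes of several groups outside skin patterning also passed the threshold in the E15 rule cells. Interferon and MHC class I genes rose in 5 of 14 and fell in 0: Ifi27 was at 11.8, 12.5, 56 and 53.7 CPM in WT, HET, KO 1 and KO 2 (2.17 ± 0.13, adjusted p = 0.00109), and Bst2 (1.46 ± 0.21), H2-D1 (1.09 ± 0.20), B2m (0.72 ± 0.12) and Ifitm3 (0.57 ± 0.10) were the others. An Ifi27 UMI was found in 4.22%, 5.13%, 21.3% and 18.7% of thinned rule cells and in 8.7%, 6%, 17.9% and 12% of macrophage-gene barcodes. The control shares of Ifi27 were at or below those of the macrophage-gene barcodes. Bst2 was not called without cells that had markers of another type (adjusted p = 0.0593). Cholesterol synthesis genes fell in 4 of 16 and rose in 0, with 15 of 16 negative. Insig1 (68.5, 58.7, 31.4 and 38.2 CPM, -0.86 ± 0.14), Fdps (-0.82 ± 0.17) and Idi1 (-0.75 ± 0.13) were among those that fell; Idi1 was not called with thinned cells (adjusted p = 0.144). Chemokine genes rose in 3 of 12: Cxcl12 was at 125, 123, 263 and 262 CPM (1.08 ± 0.10, adjusted p = 0.00451), Ccl11 changed by 1.83 ± 0.39 and Cxcl14 by 0.56 ± 0.13, with Cxcl14 not called without WT or KO 1 (adjusted p = 0.14 and 0.0966).

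S phase genes had 0 of 20 called. G2 and M phase genes fell in 3 of 24 with all 24 negative (median -0.31): Ube2c was at 331, 350, 213 and 223 CPM (-0.64 ± 0.11, adjusted p = 0.0208), and Ccna2 (-0.49 ± 0.11) and Aurkb (-0.50 ± 0.11) were called with all 4 libraries but not when KO 1 (adjusted p = 0.141 and 0.182) or KO 2 (adjusted p = 0.123 and 0.107) or HET (adjusted p = 0.0936 and 0.0778) was left out, nor Aurkb without WT (adjusted p = 0.0678). Stress and immediate early genes had 0 of 19 called. In the retinoic acid list Cyp26b1 and Rarg fell; Rarg (-0.54 ± 0.11) was not called without HET, KO 1 or KO 2 (adjusted p = 0.0753, 0.0869 and 0.151). Among axon guidance and neurotrophin genes 2 of 20 rose and 4 fell. The receptor Nrp2 was at 68.5, 49.6, 31.1 and 26.4 CPM (-1.03 ± 0.18, adjusted p = 0.0227) and at -0.43 without the cells that had a UMI of Sox2, Sox18 or Foxd1 (adjusted p = 0.174). The nerve growth factor relative Ntf3 fell (-0.88 ± 0.15), a call lost without KO 1 (adjusted p = 0.0518), and the guidance receptor Epha4 rose (1.08 ± 0.18, adjusted p = 0.021). Among Hox genes 1 of 9 anterior (Hoxc4, -1.12 ± 0.18, not called with thinned cells, adjusted p = 0.0722) and 1 of 11 posterior members fell (Hoxd8, -0.81 ± 0.18, not called without WT or KO 1, adjusted p = 0.0699 and 0.0972).

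Remaining lists gave few calls. In the matrix remodelling list Adamts5 rose (19.5, 14.1, 32.8 and 34.9 CPM, 1.04 ± 0.17), a protease call lost without cells that had markers of another type (adjusted p = 0.2), beside Timp1. In the hypoxia and glycolysis list Adm rose (1.49 ± 0.34) and Mif fell (-0.52 ± 0.11), and neither was called without HET (adjusted p = 0.123 and 0.0921), KO 1 (0.0756 and 0.0681) or KO 2 (0.0756 and 0.067), nor Mif without WT (0.0619). In the contractile list Tagln rose (3.24, 1.93, 16.3 and 8.84 CPM, 2.34 ± 0.40) but was at 0.61 without cells that had markers of another type (adjusted p = 0.505). Tnnc2, a muscle gene, was not called without KO 1 (adjusted p = 0.057).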
